A study of Mus musculus with 3 samples.

Results

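The axon guidance ligands and receptors described here are 64 of the 16181 genes listed in the UMI count tables, taken by gene symbol alone and not by any measured value. The 32 ligands are 19 semaphorins, 3 Slits, 7 ephrins and 3 netrins. The 32 receptors are 9 plexins, 2 neuropilins, 4 Robos, 12 Eph receptors and 5 netrin receptors, namely *Dcc* and *Unc5a* to *Unc5d*.

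The counts come from Drop-seq, which tags the 3′ end of RNA molecules from single cells, of the cerebella of 3 mice at postnatal day 7 (P7), with 1 library a mouse made from the tissue on a single side of the midline. All 3 mice were *Math1-Cre/Eed fl/fl* (*Eed* cKO) and untreated, and no other genotype was analysed here, so nothing below compares *Eed* cKO with WT. *Eed* encodes a core subunit of the Polycomb repressive complex PRC2. *Math1-Cre* is active in the *Atoh1* lineage, which in the cerebellum at this age is chiefly the granule neuron progenitors (CGNPs) and the granule neurons (CGNs) made from them, so the tissue also holds interneurons, glia and vessels outside that lineage.

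Growing axons and migrating neurons read guidance cues through surface receptors. Semaphorins signal through plexins, with neuropilins as co-receptors for the secreted class 3 members and for VEGF. Slits signal through Robo receptors, ephrins and Eph receptors signal between touching cells in both directions, and netrins act through DCC, which can attract, and through UNC5 proteins, which repel. In the postnatal cerebellum, granule neurons leave the external granule layer, extend parallel fibres and migrate inward past the Purkinje cells, and *Sema6a* with *Plxna2*, *Plxnb2* and *Unc5c* are known for roles in that journey. The same families also pattern blood vessels, where *Robo4*, *Unc5b*, *Plxnd1* and neuropilins are known endothelial receptors.

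After filtering, the 3 libraries held 918, 547 and 908 cells with 1003741, 540816 and 1536645 UMIs, and median depths of 919.5, 857 and 1408 UMIs a cell. No cell barcode was shared between libraries. Cells were clustered without the 64 genes and 65 further pathway genes. Clusters named from marker genes gave 662 proliferating CGNP-like, 535 differentiating CGNP/CGN-like, 187 interneuron progenitor-like, 343 interneuron-like, 108 astrocyte-like, 122 oligodendrocyte-like, 52 endothelial-like, 26 pericyte-like, 48 vascular fibroblast-like, 49 myeloid-like and 75 myoid-like cells. A cluster of 166 cells, 41, 9 and 116 of them from mice 1, 2 and 3, carried 4 markers of differentiating CGNP/CGN and 3 of Purkinje cells, and stayed unnamed because its 10 strongest genes held the Purkinje markers Pcp4 and Calb1 and none of the other 4. Without the upper limit on UMIs and genes, a cluster of 167 cells, 38, 7 and 122 from mice 1 to 3, was named Purkinje-like. *Eed* itself was lower in CGNP/CGN-like cells, at 29.98, 13.9 and 21.7 UMIs per 1000000 (CPM) in mice 1 to 3, than in interneuron and interneuron progenitor-like cells together, at 76.3, 118 and 45.7 CPM (log2 fold change -1.52 ± 0.44 SE, edgeR adjusted p = 0.0316).

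A level in CPM is the number of UMIs of a gene per 1000000 UMIs of all cells of that group in a mouse, in which fewer expressing cells and fewer molecules per cell cannot be told apart. Each molecule is counted once at its 3′ end, so levels were not divided by gene length, and levels of different genes still share the limit that capture can differ between genes. The members were sparse. Together they gave 4525 UMIs in the passed cells, 7 members had under 10 UMIs, 44 had 10 to 99 and 13 had at least 100, and 46 were seen in all 3 mice. Levels are given as means ± SD over 3 mice, and 3 UMIs were taken as the floor for a group in which none was seen. Differences were tested on UMIs summed by mouse and cell group, 3 sums against 3, with edgeR over all genes, and "past the threshold" means a Benjamini-Hochberg adjusted p under 0.05. Of the 64 members, 29 had enough UMIs to be tested in at least 1 comparison. A member enters a test when either group is high enough, so counts among tested members are descriptions of those members and do not stand for all 64.

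**Figure D1:**
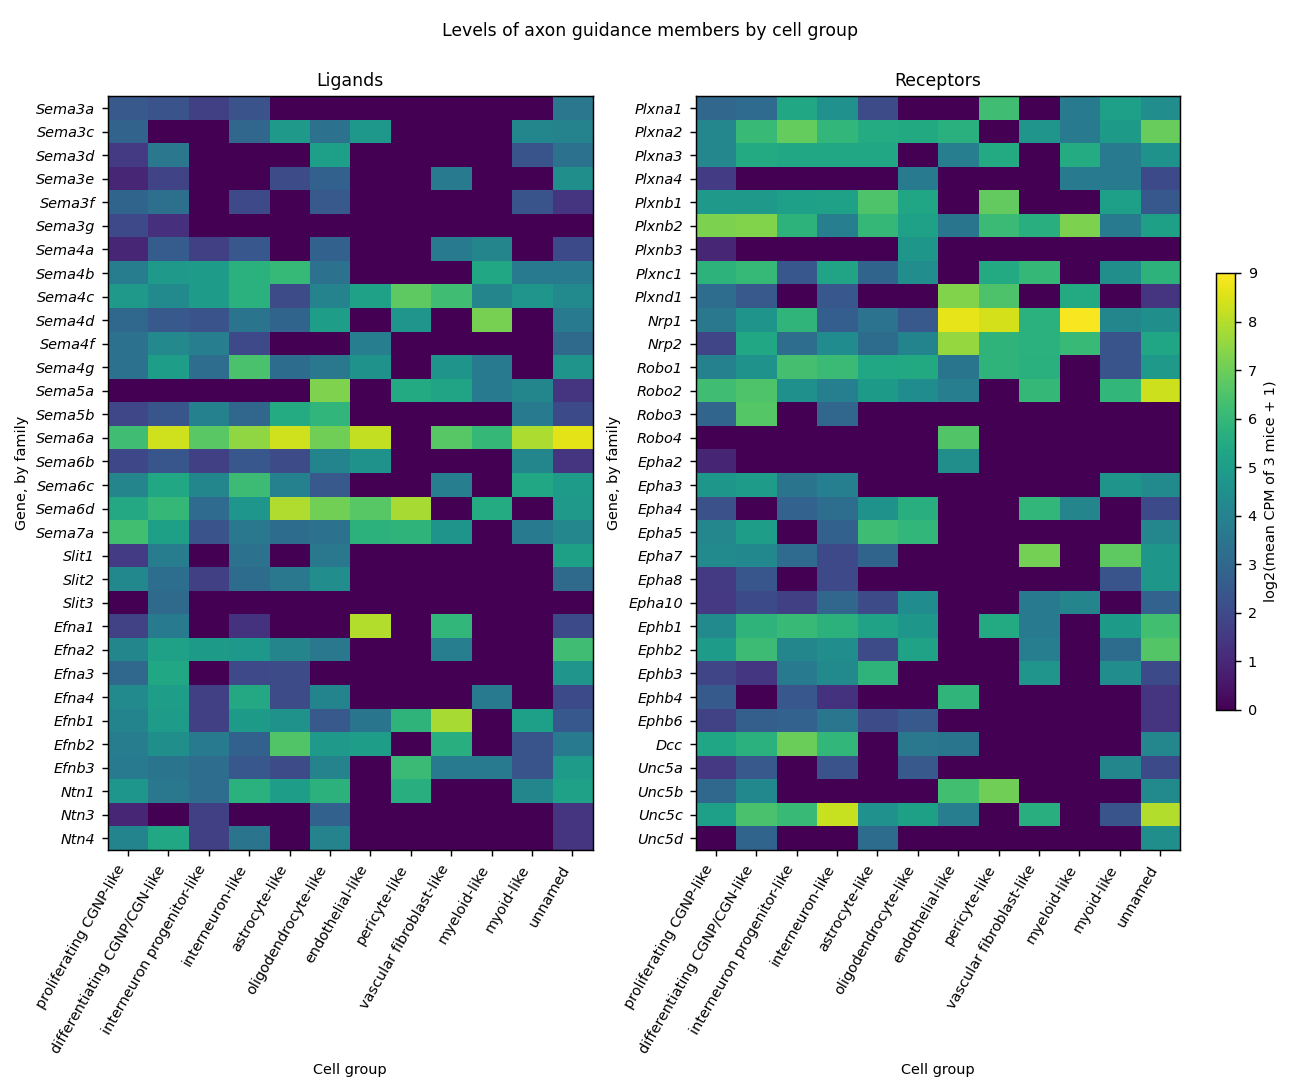
Mean level of each of the 32 ligands (left) and 32 receptors (right) in 12 cell groups, as log2 of the mean CPM of 3 mice plus 1, with genes ordered by family. *Sema6a* is high in nearly every column, whereas *Robo4*, *Efna1*, *Sema5a* and *Robo3* are each brightest in 1 column, and the class 3 semaphorins and Slits are dark in most columns.

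The leading members differed between some cell groups and were shared by others. *Sema6a* was the ligand with the highest mean in 6 of the 11 named groups, among them endothelial-like cells (289 ± 112 CPM), interneuron-like cells (182 ± 30.6 CPM) and myoid-like cells (235 ± 54.0 CPM). Among the other leading ligands were *Sema7a* in proliferating CGNP-like cells (75.6 ± 33.7 CPM), *Sema5a* in oligodendrocyte-like cells (152 ± 44.6 CPM), *Sema6d* in pericyte-like cells (227 ± 131 CPM), *Efnb1* in vascular fibroblast-like cells (226 ± 61.0 CPM) and *Sema4d* in myeloid-like cells (143 ± 4.03 CPM). The leading receptors were *Plxnb2* in proliferating (149 ± 33.2 CPM) and differentiating cells (157 ± 74.5 CPM), *Dcc* in interneuron progenitor-like cells (124 ± 71.9 CPM) and *Unc5c* in interneuron-like cells (299.96 ± 70.9 CPM). In glia they were *Plxnb1* in astrocyte-like cells (90.9 ± 27.8 CPM) and *Epha5* in oligodendrocyte-like cells (61.9 ± 43.8 CPM). *Nrp1* led in endothelial-like, pericyte-like and myeloid-like cells, and *Epha7* in vascular fibroblast-like (138 ± 16.2 CPM) and myoid-like cells (107 ± 38.2 CPM). Several of these means rest on few UMIs, such as the 8 of *Sema4d* in myeloid-like cells, and neighbours in the order often overlapped between mice, as *Sema7a* and *Sema6a* did in proliferating CGNP-like cells.

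The next members in the order came from several families. In interneuron-like cells *Sema4g* (85.0 ± 19.2 CPM) and *Sema6c* (71.1 ± 26.3 CPM) followed *Sema6a*, and *Robo1* (70.0 ± 47.0 CPM) and *Plxna2* (60.7 ± 37.2 CPM) followed *Unc5c*. In interneuron progenitor-like cells *Plxna2* (117 ± 40.4 CPM) and *Robo1* (79.6 ± 25.5 CPM) followed *Dcc*, while *Sema4b* and *Sema4c*, both at 29.5 ± 27.2 CPM, came after *Sema6a*. *Sema6d* was among the first 3 ligands of both granule stages, and *Ntn4*, a netrin of basement membranes, was the third in differentiating cells (41.5 ± 24.0 CPM). In oligodendrocyte-like cells *Sema6a* (131 ± 34.4 CPM) was close to *Sema6d*, and *Epha4* (50.8 ± 31.9 CPM) and *Plxna2* (43.0 ± 10.2 CPM) followed *Epha5*. In astrocyte-like cells *Efnb2* (93.6 ± 78.4 CPM) was the third ligand, and *Epha5* (73.2 ± 43.0 CPM) and *Plxnb2* (62.5 ± 15.2 CPM) followed *Plxnb1*.

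In the vascular and other groups these levels rest on fewer UMIs. Endothelial-like cells had *Efna1* (249 ± 76.3 CPM, 19 UMIs) and *Sema6d* (100.2 ± 39.4 CPM, 8 UMIs) after *Sema6a*, and *Nrp2* (189 ± 28.1 CPM, 14 UMIs) after *Nrp1*. Pericyte-like cells had *Sema4c* (107 ± 93.4 CPM, 3 UMIs), *Efnb3* (69.5 ± 66.8 CPM, 2 UMIs) and *Plxnb1* (114 ± 197 CPM, 2 UMIs) among their first 3. Vascular fibroblast-like cells had *Sema6a* (101 ± 57.8 CPM, 6 UMIs), *Sema4c* (74.8 ± 63.4 CPM, 4 UMIs), *Plxnc1* (63.2 ± 56.8 CPM, 5 UMIs) and *Robo2* (62.2 ± 75.9 CPM, 5 UMIs). In myeloid-like cells *Sema6a* and *Sema6d* had 2 UMIs and 1 UMI, and *Nrp2* was at 68.4 ± 59.5 CPM (5 UMIs). Myoid-like cells had *Sema6c* (41.1 ± 13.9 CPM, 6 UMIs), *Efnb1* (33.0 ± 57.1 CPM, 2 UMIs), *Robo2* (61.6 ± 37.0 CPM, 8 UMIs) and *Plxna1* (33.0 ± 14.3 CPM, 4 UMIs). SDs near or above the mean show that single mice set several of these values.

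Summed over families, the receptor side exceeded 1000 CPM in the mean of differentiating CGNP/CGN-like, endothelial-like, pericyte-like and unnamed cells. In differentiating CGNP/CGN-like cells the 32 receptors summed to 1068, 994 and 1048 CPM in mice 1 to 3, against 642, 527 and 636 CPM in proliferating CGNP-like cells. The ligands summed to 781, 794 and 1028 CPM in differentiating and 454, 339 and 557 CPM in proliferating cells. On both sides the mice did not overlap between these stages of the granule lineage. Ligand sums were lowest in interneuron progenitor-like cells, at 307 ± 147 CPM, and highest in astrocyte-like cells, at 936 ± 93.0 CPM. *Sema6a* and *Sema6d*, at 324 ± 39.2 and 243 ± 56.0 CPM, gave most of the astrocyte-like sum.

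**Figure D2:**
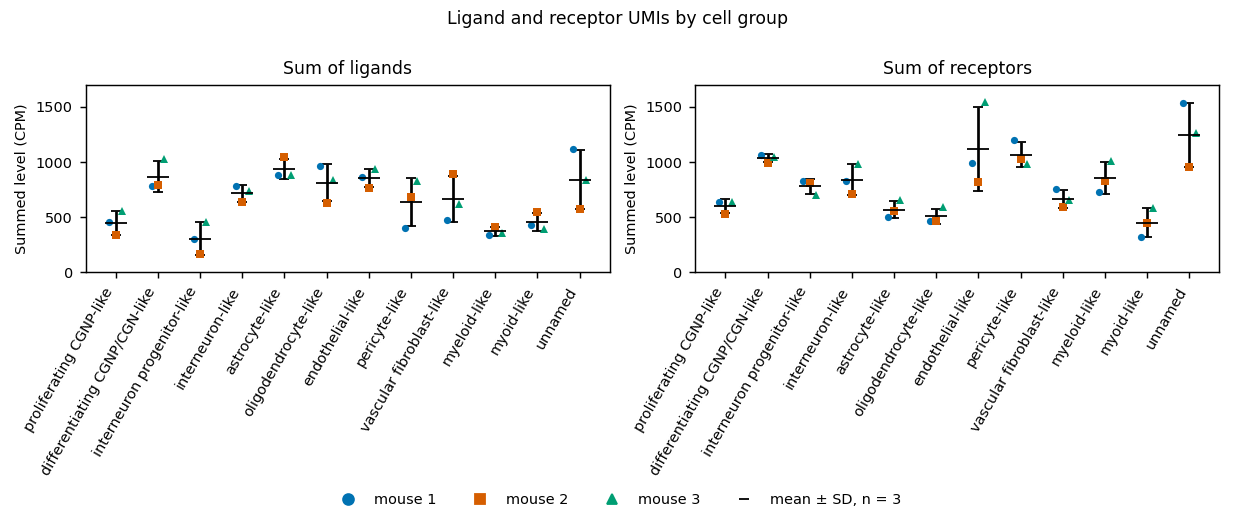
Summed level in CPM of the 32 ligands (left) and 32 receptors (right) in each cell group, with 1 point per mouse and the mean ± SD of 3 mice. Both sums are higher in differentiating CGNP/CGN-like than in proliferating CGNP-like cells in every mouse.

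The first comparison asked how guidance genes differ between proliferating CGNP-like cells and their differentiating CGNP/CGN-like progeny, both of the *Atoh1* lineage. Of 11 members tested, 5 were lower in proliferating cells and none was higher by edgeR, which means 5 genes at higher levels on the differentiating side, where 14.7% of all 4961 genes tested were lower and 13.7% higher in proliferating cells. They were 1 ligand, *Sema6a*, and 4 receptors, *Robo3*, *Unc5c*, *Ephb1* and *Ephb2*. Among members higher in proliferating cells, 1 (*Sema7a*) had an unadjusted p under 0.05, and DESeq2 called none. The median log2 fold change was -0.60 over the tested members and 0.01 over all genes tested.

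*Sema6a*, a transmembrane semaphorin that binds *Plxna2* and *Plxna4*, was the ligand with the most UMIs in the series, 589. It stood at 88.6, 39.2 and 96.2 CPM in the proliferating cells of mice 1 to 3 and at 303, 316 and 353 CPM in the differentiating cells. The groups did not overlap, and each mouse was higher in its differentiating cells (74.7 ± 31.0 against 324 ± 26.0 CPM, log2 fold change -2.07 ± 0.27 SE, edgeR adjusted p = 8.12e-06). On average 9.96% of the proliferating cells held a *Sema6a* UMI at a median depth of 1160 UMIs a cell, whereas among the differentiating cells, with a median of 901 UMIs, the share was 26.1%. Of its receptors, *Plxna4* was close to undetected, with 2 UMIs in proliferating and 0 in differentiating cells. *Plxna2*, at 16.9 ± 2.15 and 66.5 ± 46.6 CPM, was lower in the proliferating cells of every mouse but had too few UMIs to be tested here, and it was called in the same direction without the filter on low counts.

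*Robo3*, a divergent Robo receptor known from commissural axons as they cross the midline, was seen mainly in differentiating CGNP/CGN-like cells. It stood at 144, 61.7 and 86.3 CPM there, and at 5.37, 8.70 and 5.83 CPM in proliferating cells. The lowest differentiating value was thus far above the highest proliferating one (log2 fold change -3.87 ± 0.50 SE, edgeR adjusted p = 8.07e-06). Of its 67 UMIs in passed cells, 58 were in differentiating CGNP/CGN-like, 6 in proliferating CGNP-like and 3 in interneuron-like cells.

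*Robo3* lies on chromosome 9 of GRCm38 from 37415669 to 37433246 on the minus strand, and its neighbour *Robo4* on the plus strand from 37401897 to 37415115 (GENCODE M21), with 553 bases between their 3′ ends. The 2 neighbours were seen in separate cell groups, since all 6 UMIs of *Robo4* in passed cells were in endothelial-like cells and none in the granule lineage. Their promoter windows from RefSeq (GRCm38.p6, 250 bases before to 50 after the start) are printed here because the genes are adjacent and differ in cell group, and that of *Unc5c* because it was called in both neuronal lineages. *Robo3* is shown at chr9:37433126-37433425 (minus strand), *Robo4* at chr9:37401722-37402021 (plus strand) and *Unc5c* at chr3:141465314-141465613 (plus strand), each 5′ to 3′ with CG dinucleotides in capitals.
Robo3: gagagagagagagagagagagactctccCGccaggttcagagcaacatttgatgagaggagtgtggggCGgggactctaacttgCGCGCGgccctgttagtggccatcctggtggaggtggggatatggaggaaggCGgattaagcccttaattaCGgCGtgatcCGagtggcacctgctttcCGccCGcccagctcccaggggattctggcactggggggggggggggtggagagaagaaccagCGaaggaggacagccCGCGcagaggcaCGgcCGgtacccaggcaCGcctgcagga
Robo4: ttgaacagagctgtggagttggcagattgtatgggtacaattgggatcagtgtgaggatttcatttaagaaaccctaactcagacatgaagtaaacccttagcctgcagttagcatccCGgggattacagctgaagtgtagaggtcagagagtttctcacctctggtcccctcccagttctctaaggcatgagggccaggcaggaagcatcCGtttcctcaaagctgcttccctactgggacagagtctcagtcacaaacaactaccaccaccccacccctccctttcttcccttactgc
Unc5c: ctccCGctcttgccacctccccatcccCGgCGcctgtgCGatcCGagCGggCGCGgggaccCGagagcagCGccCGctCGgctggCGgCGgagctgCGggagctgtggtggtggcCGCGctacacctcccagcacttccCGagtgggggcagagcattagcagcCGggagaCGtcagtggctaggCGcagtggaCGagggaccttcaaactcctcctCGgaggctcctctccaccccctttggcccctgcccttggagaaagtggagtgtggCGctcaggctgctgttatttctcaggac
The *Robo3* window holds 17 CG dinucleotides and that of *Unc5c* 24, against 2 in that of *Robo4*. Windows were found for 55 members (71 windows). Their median was 20 CG dinucleotides, which was also the median over the 13433 windows of all genes listed in the count tables, and 50.7% of member windows and 51.3% of those windows held at least 20. The median ratio of observed to expected CG dinucleotides was 0.664 in member windows and 0.739 in those of all listed genes, and the median GC content 64.3% and 60.7%. The *Robo4* window lies far below both medians of the CG count.

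*Unc5c*, a repulsive netrin receptor, was at 43.0, 30.5 and 26.2 CPM in proliferating and 87.3, 92.5 and 74.5 CPM in differentiating cells (log2 fold change -1.31 ± 0.36 SE, edgeR adjusted p = 0.00925). *Ephb1* was at 26.9, 21.8 and 5.83 CPM in proliferating and 46.2, 61.7 and 62.8 CPM in differentiating cells (log2 fold change -1.64 ± 0.47 SE, edgeR adjusted p = 0.0123). *Ephb2* was at 40.3, 30.5 and 20.4 CPM in proliferating and 51.4, 92.5 and 66.7 CPM in differentiating cells (log2 fold change -1.15 ± 0.40 SE, edgeR adjusted p = 0.0351). None of these receptors overlapped between the stages, though the gap for *Ephb2* was narrow. EphB proteins are tyrosine kinase receptors for the transmembrane ephrin-Bs, whose genes *Efnb1*, *Efnb2* and *Efnb3* had mean levels of 9.92 to 30.7 CPM in these stages. Without mouse 2 the edgeR adjusted p rose to 0.0742 for *Unc5c*, 0.0733 for *Ephb1* and 0.206 for *Ephb2*, and without mouse 3 to 0.186 for *Ephb2*. That of *Ephb2* was also 0.110 with DESeq2 and 0.0897 without the filter on low counts, while *Sema6a* and *Robo3* stayed past the threshold without any single mouse.

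The 6 other tested members did not pass. *Sema7a*, a GPI-anchored semaphorin, was at 72.5, 43.5 and 111 CPM in proliferating and 36.0, 23.1 and 43.2 CPM in differentiating cells, without overlap (log2 fold change 1.10 ± 0.42 SE, edgeR adjusted p = 0.0565, and 0.00809 with the mouse as a block). *Plxnb2*, the plexin with the most UMIs, was nearly level at 149 ± 33.2 and 157 ± 74.5 CPM. The log2 fold changes of *Robo2*, *Plxnc1*, *Dcc* and *Sema6d* lay between -0.60 and -0.26 with overlapping mice. Summed markers of Purkinje cells overlapped between the stages, at 30.5 to 347 CPM in proliferating and 113 to 290 CPM in differentiating cells. Those of interneurons, at 309 to 399 and 616 to 663 CPM, and of unipolar brush cells, at 4.35 to 29.5 and 51.4 to 169.6 CPM, were higher in the differentiating cells. Hemoglobin genes summed to 387 to 4554 and 126 to 1772 CPM. All 7 interneuron, 3 unipolar brush cell and 5 erythroid markers and at least 7 of 8 Purkinje markers were seen in both, and their part in the results was not tested.

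**Figure D3:**
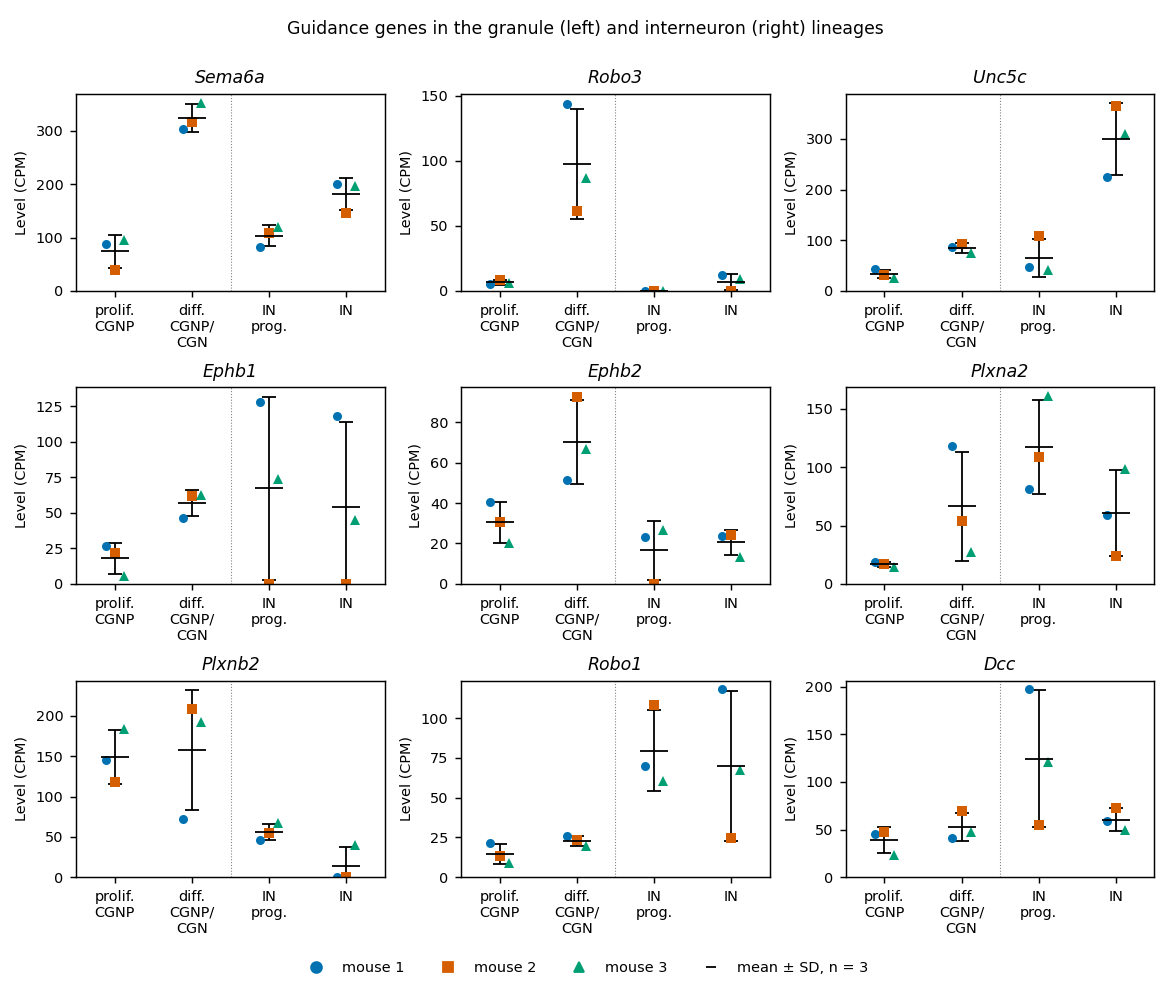
Level in CPM of 9 members in the granule lineage (left of each panel) and the interneuron lineage (right, IN for interneuron), with 1 point per mouse and the mean ± SD of 3 mice. *Sema6a* and *Unc5c* are higher in the differentiated than in the progenitor cells of both lineages in every mouse, *Robo3* is seen mainly in differentiating CGNP/CGN-like cells, and *Plxna2* is higher in the differentiated cells of one lineage and in the progenitor cells of the other.

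The same step was then examined in the interneuron lineage, which arises outside the *Atoh1* lineage. Only 2 members, *Unc5c* and *Sema6a*, had enough UMIs to be tested between interneuron progenitor-like and interneuron-like cells. *Unc5c* was at 46.6, 109 and 40.2 CPM in progenitor-like and 225, 366 and 310 CPM in interneuron-like cells, the highest mean of any receptor in a named neuronal group. It was lower in the progenitors of every mouse (log2 fold change -2.54 ± 0.42 SE, edgeR adjusted p = 5.59e-05), the 1 member called, where 7.78% of all 2031 genes tested were lower and 9.65% higher. None of the 2 members was higher by edgeR or DESeq2. *Sema6a* was at 81.5, 109 and 121 CPM in progenitor-like and 201, 146 and 197 CPM in interneuron-like cells, lower in the progenitors of all 3 mice without passing (log2 fold change -0.81 ± 0.39 SE, edgeR adjusted p = 0.170). Mouse 2 contributed only 20 interneuron progenitor-like cells. Astrocyte markers summed to 2003 to 2159 CPM in progenitor-like cells, with 8 of 11 seen, and to 317 to 580 CPM in interneuron-like cells, with 9 seen. Purkinje markers summed to 105 to 262 CPM in progenitor-like cells and to 154, 48.7 and 1319 CPM in the interneuron-like cells of mice 1 to 3, with 7 of 8 seen in both. Markers of differentiating CGNP/CGN summed to 1735 to 1992 CPM in progenitor-like and 3193 to 3329 CPM in interneuron-like cells, with 9 of 9 seen. The part of these lists in the results was not tested.

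The difference between the 2 lineages in this step was tested directly as an interaction over 11 members. None passed by edgeR, where the progenitor over differentiated fold change was called larger in the granule lineage for 0.303% of 4948 genes and smaller for 0.808%, 6 members had an unadjusted p under 0.05, and DESeq2, which gave an adjusted p for 3 members, called 0 with 4 at that level. The smallest p belonged to *Plxna2*, the *Sema6a* receptor. It was lower in proliferating than differentiating cells of the granule lineage in every mouse, at 18.8, 17.4 and 14.6 against 118, 54.0 and 27.5 CPM. It was higher in progenitor-like than in interneuron-like cells in every mouse, at 81.5, 109 and 161 against 59.1, 24.4 and 98.7 CPM, which in mouse 2 rests on 2 UMIs against 1. The log2 fold changes thus differed by -2.65 ± 0.72 SE (edgeR adjusted p = 0.0696, and 0.00686 with the mouse as a block). For *Sema6a* the difference was -1.25 ± 0.47 SE (edgeR adjusted p = 0.281) and for *Unc5c* 1.27 ± 0.57 SE (edgeR adjusted p = 0.445). A difference between lineages in this step was thus not detected for these genes.

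Between lineages as a whole, CGNP/CGN-like cells were compared with interneuron-class cells, which pools interneuron-like and interneuron progenitor-like cells. Each side mixes stages in unlike proportions, 662 proliferating and 535 differentiating cells against 187 progenitor-like and 343 interneuron-like cells. The part of this mix in the results was not tested. Of 19 members tested, 4 were higher and 3 lower in CGNP/CGN-like cells, where 3.91% of all 6497 genes tested were higher and 3.99% lower. Higher in the granule lineage were *Plxnb2*, *Robo2*, *Sema7a* and *Robo3*. Lower were *Unc5c*, *Robo1* and *Plxna2*, so that the 3 tested Robo genes were split between the lineages. The median log2 fold change was -0.05 over the tested members and 0.02 over all genes. Astrocyte markers summed to 305 to 490 CPM in the CGNP/CGN-like groups, to 2003 to 2159 CPM in interneuron progenitor-like cells and to 317 to 580 CPM in interneuron-like cells. Purkinje markers summed to at most 347 CPM in the CGNP/CGN-like groups and to 154, 48.7 and 1319 CPM in the interneuron-like cells of mice 1, 2 and 3. Markers of differentiating CGNP/CGN summed to 3193 to 3329 CPM in interneuron-like and 6923 to 8655 CPM in differentiating CGNP/CGN-like cells. Those of proliferating CGNP summed to 4829 to 5591 CPM in interneuron progenitor-like and 4657 to 5549 CPM in proliferating CGNP-like cells. The part of these marker lists in the comparison was not tested.

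*Plxnb2*, a receptor for class 4 semaphorins, was at 120, 150 and 187 CPM in CGNP/CGN-like and 23.5, 16.8 and 51.1 CPM in interneuron-class cells, far apart in every mouse (log2 fold change 2.0 ± 0.35 SE, edgeR adjusted p = 0.000288). *Robo2* was at 88.2, 55.6 and 97.0 against 17.6, 16.8 and 10.8 CPM (log2 fold change 2.59 ± 0.47 SE, edgeR adjusted p = 0.000472). *Robo1*, its close relative in Slit reception, went the other way, at 22.9, 16.7 and 13.4 against 93.9, 50.5 and 64.5 CPM (log2 fold change -1.99 ± 0.42 SE, edgeR adjusted p = 0.00254). The mice did not overlap for any of the 3 receptors. *Robo3* had 64 UMIs in CGNP/CGN-like and 3 in interneuron-class cells, a ratio of levels of 8.42 with a 95% exact counting interval of 2.76 to 41.9 (edgeR adjusted p = 0.00464).

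*Unc5c* was at 58.2, 52.9 and 46.8 CPM in CGNP/CGN-like and 135, 286 and 202 CPM in interneuron-class cells (log2 fold change -1.86 ± 0.28 SE, edgeR adjusted p = 6.64e-05). *Sema7a* was at 59.96, 36.2 and 82.0 against 5.87, 16.8 and 5.38 CPM (log2 fold change 3.13 ± 0.61 SE, edgeR adjusted p = 0.00107). *Plxna2* was at 52.9, 30.6 and 20.1 against 70.4, 50.5 and 124 CPM (log2 fold change -1.42 ± 0.39 SE, edgeR adjusted p = 0.0218), and it is the called member in this comparison whose mice overlapped. By stage, the *Plxna2* values given above overlapped between differentiating CGNP/CGN-like and interneuron-like cells. They were apart only between proliferating CGNP-like and interneuron progenitor-like cells. The edgeR adjusted p of *Plxna2* was 0.0980 without mouse 2, 0.700 without mouse 3, 0.121 with DESeq2 and 0.235 with the unnamed cluster counted as differentiating CGNP/CGN-like. Without mouse 3 that of *Robo2* was 0.0707, and without mouse 1 that of *Robo3* was 0.0805.

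*Sema6a*, pooled over stages, did not separate the lineages, at 169 ± 33.8 and 147 ± 17.0 CPM (log2 fold change 0.18 ± 0.24 SE). By stage it was at 324 ± 26.0 CPM in differentiating CGNP/CGN-like and 182 ± 30.6 CPM in interneuron-like cells. The order was reversed in proliferating CGNP-like and interneuron progenitor-like cells, at 74.7 ± 31.0 and 104 ± 20.1 CPM. These gaps between lineages by stage were not tested. *Dcc*, the attractive netrin receptor, was at 44.1, 55.6 and 33.5 CPM in CGNP/CGN-like and 129, 67.3 and 78.0 CPM in interneuron-class cells (log2 fold change -1.08 ± 0.35 SE, edgeR adjusted p = 0.0562, and 0.00681 with the mouse as a block). Its highest neuronal level was in interneuron progenitor-like cells, at 198, 54.3 and 121 CPM. *Sema6d* was at 49.6 ± 12.1 and 18.2 ± 16.3 CPM (log2 fold change 1.83 ± 0.59 SE, edgeR adjusted p = 0.0623, and 0.0144 with the block). *Ntn1*, the ligand of DCC and UNC5 proteins, was not tested in any comparison, with means of 25.5 ± 8.87 CPM in proliferating CGNP-like, 11.2 ± 4.08 CPM in differentiating CGNP/CGN-like and 52.3 ± 30.7 CPM in interneuron-like cells. Its mean was 54.5 ± 53.7 CPM in oligodendrocyte-like cells, from 10 UMIs, and 50.2 ± 86.9 CPM in pericyte-like cells, from 2 UMIs.

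Glia-like cells, astrocyte-like and oligodendrocyte-like together, were compared with neuronal cells, which pool the CGNP/CGN-like and interneuron-class cells. Of 15 members tested, 5 were higher in glia and 1 lower, where 12.1% of all 5922 genes tested were higher and 7.16% lower. The higher members were the ligands *Sema5a*, *Sema6d* and *Efnb2* and the receptors *Epha4* and *Epha5*. The median log2 fold change was 0.50 over the tested members and -0.04 over all genes. Ependymal markers summed to 2631, 6691 and 97.8 CPM in the astrocyte-like cells of mice 1 to 3, with 6 of 6 seen, to 0 in oligodendrocyte-like cells and to 107 CPM or less in the neuronal groups, and their part in the results was not tested.

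*Sema5a*, a transmembrane semaphorin with thrombospondin repeats, had 22 UMIs in glia-like cells, all of them oligodendrocyte-like, and 0 in 2126278 neuronal UMIs. Taking 3 UMIs over the group as the floor, it was at least 49.1-fold higher in glia-like cells (edgeR adjusted p = 3.16e-06). In oligodendrocyte-like cells it stood at 143, 200 and 112 CPM. *Sema6d* was at 205, 194 and 150 CPM in glia-like and 57.0, 38.2 and 27.8 CPM in neuronal cells, without overlap (log2 fold change 2.19 ± 0.35 SE, edgeR adjusted p = 0.000103). It was seen in both kinds of glia, at 243 ± 56.0 CPM in astrocyte-like and 133 ± 63.5 CPM in oligodendrocyte-like cells.

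*Epha4*, an Eph receptor that binds ephrins of both classes, was at 41.0, 43.2 and 46.1 CPM in glia-like and 6.78, 0 and 5.16 CPM in neuronal cells (log2 fold change 3.25 ± 0.64 SE, edgeR adjusted p = 0.000972). *Epha5* was at 61.5, 108 and 34.6 against 19.0, 19.1 and 17.5 CPM (log2 fold change 1.67 ± 0.50 SE, edgeR adjusted p = 0.0235). *Efnb2*, an ephrin-B, was at 51.2, 64.8 and 40.3 against 12.2, 14.3 and 18.6 CPM (log2 fold change 1.71 ± 0.50 SE, edgeR adjusted p = 0.0205), with its highest level in astrocyte-like cells. All 3 were higher in the glia of every mouse. The calls for *Efnb2* and *Epha5* were less firm, since the adjusted p of *Efnb2* was 0.0564 to 0.153 with any 1 mouse left out and that of *Epha5* was 0.156 without mouse 1 and 0.157 without mouse 2. Without the filter on low counts they were 0.0951 and 0.0784.

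*Dcc* was close to absent from glia, with 1 UMI against 120 in neuronal cells, a ratio of levels of 17.9 with a 95% exact counting interval of 3.16 to 714 (edgeR adjusted p = 0.00324, and 0.0704 without mouse 1). *Plxnb2*, *Unc5c* and *Plxnc1* were also lower in the glia of every mouse without overlap. *Plxnb2* was at 46.2 ± 27.3 in glia-like and 121 ± 20.6 CPM in neuronal cells (edgeR adjusted p = 0.0531, and 0.0156 with the mouse as a block). The p-values were 0.0535 and 0.0157 for *Unc5c* and 0.0741 and 0.0482 for *Plxnc1*. *Sema6a* was at 214 ± 25.0 CPM in glia-like cells, and 324 ± 39.2 CPM in the astrocyte-like ones.

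**Figure D4:**
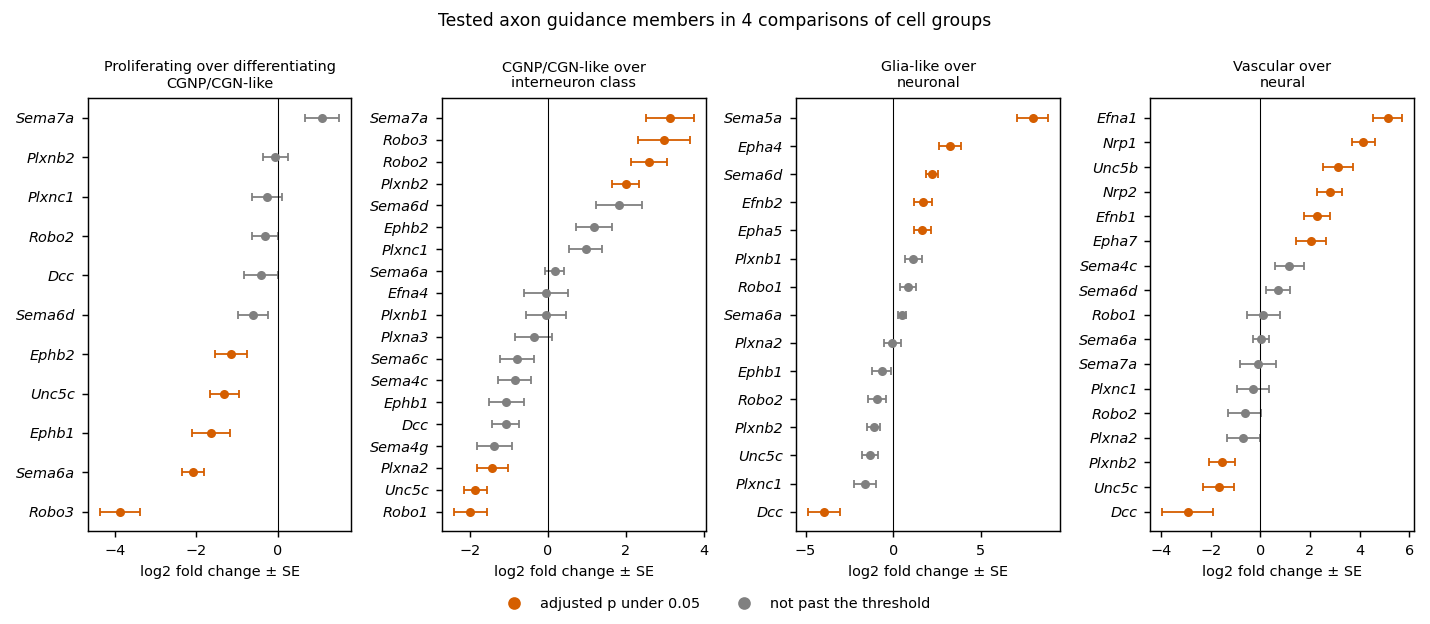
log2 fold change ± SE of each tested member in 4 comparisons of cell groups, coloured where the edgeR adjusted p was under 0.05. Called members lie on 1 side only for proliferating over differentiating CGNP/CGN-like cells and on both sides in the other 3, and the value of *Sema5a* rests on 0 UMIs in neuronal cells.

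Vascular cells, pooling endothelial-like, pericyte-like and vascular fibroblast-like cells, were compared with neural cells, the neuronal and glia-like cells together. Of 17 members tested, 6 were higher and 3 lower in vascular cells, where 14.5% of all 5562 genes tested were higher and 12.7% lower. The higher members were *Nrp1*, *Efna1*, *Nrp2*, *Unc5b*, *Efnb1* and *Epha7*, and the lower ones *Plxnb2*, *Dcc* and *Unc5c*. The median log2 fold change was 0.12 over the tested members and -0.13 over all genes.

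*Nrp1*, co-receptor for class 3 semaphorins and VEGF, was at 277, 53.1 and 399 CPM in vascular and 16.8, 19.3 and 13.1 CPM in neural cells (log2 fold change 4.14 ± 0.47 SE, edgeR adjusted p = 2.47e-07). Mouse 2 was far below the other two in vascular cells, yet above every neural value. By cell group *Nrp1* reached 403 ± 384 CPM in endothelial-like, 341 ± 149 CPM in pericyte-like and 477 ± 119 CPM in myeloid-like cells, with 32, 10 and 26 UMIs. In myeloid-like cells 1 of 10 endothelial markers was seen, summing to 0 to 414 CPM against 7878 to 9286 CPM in endothelial-like cells. *Nrp2* was at 154, 133 and 61.4 CPM in vascular and 22.8, 12.9 and 14.9 CPM in neural cells (log2 fold change 2.79 ± 0.51 SE, edgeR adjusted p = 0.000181).

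*Efna1*, an ephrin-A known from endothelium, was at 154, 186 and 76.8 CPM in vascular and 1.197, 8.60 and 3.50 CPM in neural cells (log2 fold change 5.13 ± 0.60 SE, edgeR adjusted p = 3.96e-07). Of its 33 UMIs, 19 were in the 52 endothelial-like cells. *Efna1*, *Efna3* and *Efna4* lie in a row on the minus strand of chromosome 3, with 32756 and 10424 bases between them. *Efna3* and *Efna4* had 0 UMIs in endothelial-like cells, and 25 and 18 in differentiating CGNP/CGN-like cells, where *Efna1* had 6.

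*Unc5b*, a netrin receptor known from vessels, was at 46.2, 53.1 and 76.8 CPM in vascular and 7.18, 8.60 and 6.12 CPM in neural cells (log2 fold change 3.12 ± 0.60 SE, edgeR adjusted p = 0.000289). It was seen in endothelial-like cells at 76.3 ± 19.5 CPM and in pericyte-like cells at 132 ± 118 CPM, and was at 0 UMIs in vascular fibroblast-like cells. Thus the 2 UNC5 genes tested here, of 4, were split, with *Unc5b* on the vascular side and *Unc5c* on the neural side. *Unc5c* was at 24.2 ± 7.93 in vascular and 81.7 ± 13.7 CPM in neural cells (log2 fold change -1.69 ± 0.63 SE, edgeR adjusted p = 0.0468, and 0.0569 with the mouse as a block). Its adjusted p was 0.126 to 0.197 with any 1 mouse left out and 0.0957 with DESeq2.

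*Efnb1* and *Epha7* were carried by vascular fibroblast-like cells, whose markers include Dcn, Lum and collagen genes. *Efnb1* was at 92.3, 133 and 76.8 CPM in vascular and 14.4, 17.2 and 28.0 CPM in neural cells (log2 fold change 2.28 ± 0.52 SE, edgeR adjusted p = 0.00182), and at 226 ± 61.0 CPM in the fibroblast-like cells. *Epha7* was at 46.2, 53.1 and 61.4 CPM in vascular and 13.2, 10.7 and 15.7 CPM in neural cells (log2 fold change 2.03 ± 0.59 SE, edgeR adjusted p = 0.0120), and all 9 of its vascular UMIs were in the fibroblast-like cells. The adjusted p of *Efnb1* was 0.0873 without mouse 2, and that of *Epha7* 0.0601 to 0.0934 with any 1 mouse left out and 0.0835 without the filter on low counts.

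*Dcc* had 1 UMI in vascular and 121 in neural cells, a ratio of levels of 8.30 with a 95% exact counting interval of 1.46 to 331 (edgeR adjusted p = 0.0337). *Plxnb2* was at 46.2, 26.6 and 30.7 CPM in vascular and 88.6, 123 and 126 CPM in neural cells (log2 fold change -1.56 ± 0.53 SE, edgeR adjusted p = 0.0307). Both calls were lost with any 1 mouse left out, at adjusted p of 0.0698 to 0.156 for *Dcc* and 0.0593 to 0.179 for *Plxnb2*, and with DESeq2, at 0.0720 and 0.0610. *Robo4* and *Plxnd1* had too few UMIs to be tested. Their levels in vascular cells were above those in neural cells in each of the 3 mice. Without the filter on low counts both were called, and *Plxnd1* was also called without the upper limit on UMIs and genes and without mouse 2 or mouse 3. *Robo4*, the endothelial Robo, had 1, 3 and 2 UMIs in the endothelial-like cells of mice 1 to 3 and 0 elsewhere, at least 80.0-fold higher there with 3 UMIs over all other cells as the floor. *Plxnd1*, a semaphorin receptor of endothelium, was at 61.8, 328 and 81.5 CPM in endothelial-like cells, from 10 of its 29 UMIs, with means of 88.8 CPM in pericyte-like and 44.4 CPM in myeloid-like cells.

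Astrocyte markers summed to 2243 to 9647 CPM in the 3 vascular groups and to 305 to 580 CPM in the proliferating, differentiating and interneuron-like groups. They summed to 2003 to 2159 CPM in interneuron progenitor-like, 1367 to 3237 CPM in oligodendrocyte-like and 18048 to 35555 CPM in astrocyte-like cells, which are also part of the neural group, with 7 to 9 of 11 markers seen in each vascular group. In mouse 2, erythroid genes summed to 48255 CPM in endothelial-like cells, against 124 and 285 CPM in mice 1 and 3. The part of either in the vascular values was not tested.

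**Figure D5:**
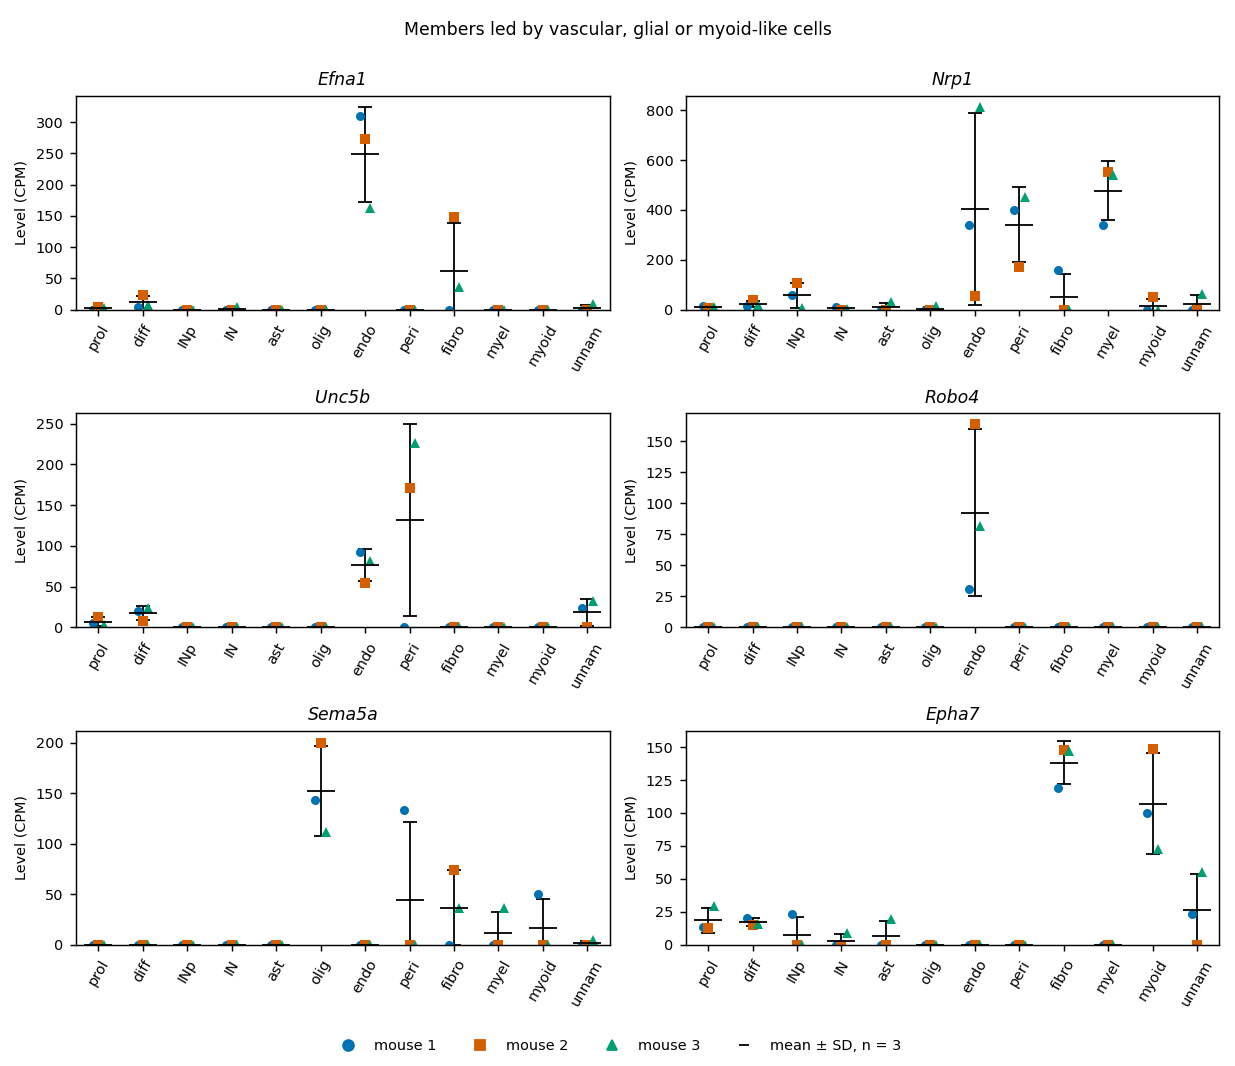
Level in CPM of 6 members in each cell group (prol, proliferating CGNP-like; diff, differentiating CGNP/CGN-like; INp, interneuron progenitor-like; IN, interneuron-like; ast, astrocyte-like; olig, oligodendrocyte-like; endo, endothelial-like; peri, pericyte-like; fibro, vascular fibroblast-like; myel, myeloid-like; unnam, the unnamed cluster), with 1 point per mouse and the mean ± SD of 3 mice. *Efna1*, *Unc5b* and *Robo4* peak in endothelial-like or pericyte-like cells, *Nrp1* also in myeloid-like cells, *Sema5a* in oligodendrocyte-like cells and *Epha7* in vascular fibroblast-like and myoid-like cells.

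Myeloid-like cells were not part of a test. Their leading members after *Nrp1* were the receptor *Plxnb2*, at 150 ± 60.5 CPM, and the ligand *Sema4d*, at 146, 138 and 144 CPM from 8 UMIs. *Sema4d*, a class 4 semaphorin known from immune cells that binds plexin-B proteins, had means of up to 31.9 CPM in the other named groups.

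Myoid-like cells, whose strongest genes include the muscle genes Myl1, *Actc1* and *Myog*, were compared with CGNP/CGN-like cells. Of 6 members tested, 1 was higher and 1 lower in myoid-like cells, where 8.9% of all 4796 genes tested were higher and 11.8% lower. *Epha7* was at 100, 148 and 73.1 CPM in myoid-like and 15.9, 13.9 and 23.4 CPM in CGNP/CGN-like cells, apart in every mouse (log2 fold change 2.38 ± 0.57 SE, edgeR adjusted p = 0.00133). *Plxnb2* had 3 UMIs in myoid-like and 234 in CGNP/CGN-like cells, a ratio of levels of 7.28 with a 95% exact counting interval of 2.46 to 35.6 (edgeR adjusted p = 0.00151). *Sema6a* was at 200, 297 and 207 CPM in myoid-like cells, close to its level in CGNP/CGN-like cells (log2 fold change 0.42 ± 0.35 SE, edgeR adjusted p = 0.458). *Unc5c* had 1 UMI in myoid-like cells (edgeR adjusted p = 0.0558). The median log2 fold change over the tested members was -1.22, against -0.11 over all genes.

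The remaining members were rare. The 35 members tested in no comparison had 3 to 89 UMIs each, with a median of 18. For neuropilins both members were tested somewhere. The untested members include all 3 Slits, with 3 to 30 UMIs, all 3 netrins, with 4 to 79, and 12 of the 19 semaphorins, among them all class 3 members, which are the secreted ligands of neuropilins. *Slit2*, a ligand of *Robo1* and *Robo2*, had 17 of its 30 UMIs in proliferating CGNP-like cells, the named group with the most UMIs, at 17.4 ± 3.87 CPM. It had 3 in the 157196 UMIs of oligodendrocyte-like cells, so the order by count is not the order by level. *Slit3* was seen only as 3 UMIs in differentiating CGNP/CGN-like cells. Receptor UMIs thus outnumbered ligand UMIs for Robos and Slits, 398 to 48. For the netrin receptors and netrins the numbers were 449 and 134, whereas semaphorins, with 1478 UMIs, outnumbered plexins and neuropilins, with 878 and 209. The 7 untested Eph receptors had 3 to 67 UMIs each.

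The 65 other pathway genes listed, which act beside or downstream of these receptors, went with the same comparisons. Between proliferating and differentiating CGNP/CGN-like cells 30 were tested, 14 were lower in proliferating cells and 4 higher, against the shares of all genes given above. The list of semaphorin and plexin signalling held 7 of these lower genes among 8 tested, adhesion and co-receptor genes 3 lower and 1 higher of 4, Robo, Eph and netrin signalling 2 lower and 1 higher of 7, and further ligands 2 higher of 2. The 5 with the lowest adjusted p were *Dpysl3*, *Crmp1*, *Cdk5r1*, *Dpysl5* and *Nrcam*. *Dpysl3*, *Crmp1* and *Dpysl5* belong to the collapsin response mediator proteins, which act on the cytoskeleton downstream of semaphorins, with log2 fold changes of -3.09 ± 0.23, -1.82 ± 0.22 and -2.67 ± 0.44 (SE). Their edgeR adjusted p-values were 1.40e-08, 3.90e-06 and 0.000116. *Cdk5r1*, the activator of the neuronal kinase Cdk5, was at -2.66 ± 0.34 (edgeR adjusted p = 7.15e-06), and the adhesion molecule *Nrcam* at -1.55 ± 0.26 (edgeR adjusted p = 0.000122).

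In the other comparisons the shares of all genes tested are repeated in brackets, higher first. Of 40 pathway genes tested, 3 were higher and 3 lower in CGNP/CGN-like than in interneuron-class cells (3.91% and 3.99%). Of 11 tested, none was higher and 3 were lower in interneuron progenitor-like than in interneuron-like cells (9.65% and 7.78%). In glia-like cells 6 were higher and 5 lower of 34 (12.1% and 7.16%), in vascular cells 7 higher and 11 lower of 32 (14.5% and 12.7%), and in myoid-like cells 4 higher and 6 lower of 23 (8.9% and 11.8%). In the interaction of the lineages 1 of 30, *Dpysl3*, was called lower (0.303% and 0.808%).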

How the data were processed

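Single cells of 3 *Eed* cKO cerebella were profiled by Drop-seq, with 1 mouse a library. The deposited files hold raw UMI counts for each gene and cell barcode, which the authors left unnormalised. STAR and the mm10 genome are named in the submitters' processing notes, and the version and settings are not given in the sources used here.

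Barcodes with at least 500 UMIs and 200 genes, at most 4 SD above the median of their mouse in both, and at most 10% mitochondrial UMIs were kept (2373 of 3481). The upper limit was the one step against doublets. Counts were normalised with sctransform 0.4.2 and clustered in Seurat 5.3.0 (R 4.3.3) on genes found in at least 30 cells, 3000 variable genes, 15 components and a resolution of 0.8, without the 129 guidance and pathway genes, 43 of which would have been among the variable genes. A cluster was named where at least 3 markers of a type were in at least 10% of its cells and 2 times higher after adding 20 CPM. No other type could have as many such markers. No other type could hold more of its 10 strongest genes, except between the CGNP types. A shallow cluster with no marker of its name among those genes also stayed unnamed. The groups therefore come from other genes of the same cells. No Purkinje or ependymal cluster was named under these settings.

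UMIs were summed by mouse and cell group and tested with the edgeR 4.0.16 quasi-likelihood test (TMM factors, filterByExpr, Benjamini-Hochberg over all genes tested, adjusted p under 0.05, two-sided). The fit was tested on simulated data. The simulated counts had a common dispersion and no shared mouse effect, so they do not test the pairing of groups within mice. Standard errors are the log2 fold change over the square root of F. Both groups of a comparison come from the same mice, so the mouse was also fitted as a block. Same-mouse deviations correlated at 0.0763 to 0.322 across genes, and the pairing rests on the shared animal. The libraries share no barcodes and differ by more than sampling noise (chi-square per degree of freedom of 2.74 to 5.27). With 3 mice, edgeR p-values set a group difference against the residual spread of the summed counts, counting noise included. The main fit treats the sums of the same mice as independent. Intervals and floors (3 UMIs) cover counting error only.

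Members, gene lists and the cluster rule were chosen with earlier results of these data known. The text accounts for every family and gives values for members past the threshold, for most leading members of each cell group and for 15 genes listed by name (*Sema6a*, *Plxna2*, *Plxnb2*, *Unc5c*, *Unc5b*, *Dcc*, *Ntn1*, *Robo1*, *Robo2*, *Slit2*, *Nrp1*, *Ephb2*, *Efnb1*, *Robo4* and *Plxnd1*). Not every comparison or cell group is given for these 15. Other members named below the threshold were chosen after their values were seen. Alternatives were DESeq2 1.42.0, RLE factors, no filter on low counts, other cell filters and resolutions, cells with a marker UMI, each mouse left out and, chosen after seeing the data, the unnamed cluster counted as differentiating CGNP/CGN-like. Promoter windows came from RefSeq and coordinates from GENCODE M21. The counts of a further pathway list are not reported here on their own.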

Additional observations from a re-analysis of the deposited data

Results flagged for a closer look

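*Plxna2* had fold changes of opposite sign in the 2 lineages. Its level was lower in proliferating than in differentiating cells of the granule lineage in every mouse and higher in progenitor-like than in interneuron-like cells, which in mouse 2 rests on 2 UMIs against 1. The log2 fold changes differed by -2.65, which did not pass (edgeR adjusted p = 0.0696, and 0.00686 with the mouse as a block), and no member was called with any 1 mouse left out.

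The unnamed cluster entered no comparison, yet 34 members had more than 3 UMIs in it, above the limit that a count of 0 allows. *Sema6a* was at 392 ± 251 CPM (SD, n = 3 mice), *Robo2* at 318 ± 144 CPM and *Unc5c* at 249 ± 57.3 CPM. The level of *Robo2* there was above its mean in all 11 named groups, the highest of which was 90.2 ± 22.3 CPM in differentiating CGNP/CGN-like cells. Purkinje markers summed to 381 to 2746 CPM in the cluster, with 7 of 8 seen, and mouse 2 gave 9 of its cells. Markers of differentiating CGNP/CGN summed to more, at 3337 to 4895 CPM with 9 of 9 seen. Which cells carried these members was not tested.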

How the results depend on the processing

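No called member changed direction under any alternative that gave a value. Without a filter on low counts, 8 of 62 members tested, instead of 5 of 11, were called between the granule stages. In glia-like cells 11 of 63 instead of 6 of 15 were called, and in myoid-like cells 5 of 63 instead of 2 of 6. Of these, 4, 4 and 2 were shared with the main calls. *Ephb2*, *Efnb2*, *Epha5* and, in vascular cells, *Epha7* were lost. With at least 1000 UMIs a cell, 1 was called in each of these comparisons, of 3, 6 and 3 tested. The shares of all genes at these settings are not given here. With the unnamed cluster counted as differentiating CGNP/CGN-like, an alternative chosen after seeing the data, 9 were called between the granule stages and 1, *Plxna2*, in the lineage difference, while *Plxna2* was lost between lineages. With 1 mouse left out, the calls were 3 to 6 between the granule stages, 3 to 7 between lineages, 2 to 7 in glia-like cells, 5 to 6 in vascular and 0 in the lineage difference. The numbers of members tested also changed with several of these settings, and the cause of the changed calls was not tested.

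With the mouse as a replicate block, the calls between the granule stages, between lineages and in glia-like and vascular cells were 6, 9, 9 and 8, and 1 was made in the lineage difference, *Plxna2*. The changed calls stand beside their values in the report, and the block changed no other call of a member. Resolution 0.4 gave values only between interneuron progenitor-like and interneuron-like cells, and resolution 1.2 only between the granule stages and in myoid-like cells, because the clusters were not named. At 1000 UMIs the pericyte and fibroblast groups were not named, so the vascular comparison gave no value, and no member passed the filter in the interneuron lineage. Adjusted p-values that DESeq2 left empty were not counted as lost. Depth limits most of all the 35 members tested in no comparison.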
